A study of Mus musculus with 6 samples.

Results

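Slpi, Reln, Prlr, Gpr55, Epcam, Kcnmb4, Chst1, Fut1, Nbea and Etl4 stood out among the largest increases in Mc5r-null LSK cells once immunoglobulin and globin genes were set aside. These 10 genes were taken by name from the 55487 in the deposited table, and all 10 were found. They were selected on the same contrast that is described, Mc5r-null against wild-type, so their values in it are a description and carry no test. LSK cells are the bone marrow cells that lack lineage markers and carry Sca-1 and Kit, among which blood stem cells and early progenitors are found. RNA was sequenced from 3 libraries of LSK cells of Mc5r-/- mice, which lack the melanocortin 5 receptor, and from 3 libraries of wild-type littermates. All mice had been irradiated. Dose, time, age and sex are not given in the sources used here. Unirradiated cells were not analysed here. The labels do not say how many mice a library held, so each spread quoted is that between libraries, which may be technical.

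The 10 genes belong to no single pathway, and they are ordered below by what their products do. Slpi and Reln encode secreted proteins. Prlr and Gpr55 encode receptors at the cell surface, Epcam an adhesion molecule and Kcnmb4 an accessory subunit of an ion channel. Chst1 and Fut1 encode enzymes that decorate sugar chains in the Golgi apparatus, and Nbea and Etl4 encode large intracellular proteins. Most of them are best known from other tissues, such as epithelia and brain, rather than from blood stem cells.

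Gene counts summed to between 13983016 and 14076870 in the Mc5r-null libraries and to between 14903723 and 14953169 in the wild-type libraries. Mc5r itself had 0, 0 and 1 counts in the Mc5r-null libraries and 181, 157 and 198 in the wild-type libraries, as the labels say. The LSK genes Kit, Cd34 and Flt3 were present in all 6 libraries, with Kit at 256 ± 5.21 CPM (counts-per-million of a library total) in Mc5r-null and 241 ± 2.95 CPM in wild-type (SD, n = 3 each). Of 15257 genes with enough counts to test, 2567 (16.8%) were higher in Mc5r-null and 2456 (16.1%) were lower. Such a call means a p under 0.05 in edgeR's quasi-likelihood F-test after Benjamini-Hochberg adjustment over all genes tested, here and throughout. Each call is judged against the spread between libraries, which may be technical. Xist, the RNA of the inactive X chromosome, had 0, 2 and 2 counts in Mc5r-null and 1224, 1167 and 1281 in wild-type, while 4 Y-linked genes were present in all 6 libraries. Eif2s3y had 56.7 ± 5.06 CPM in Mc5r-null and 59.5 ± 1.8 CPM in wild-type, Uty 13.0 ± 0.933 CPM in Mc5r-null and 12.0 ± 1.11 CPM in wild-type, Kdm5d 23.3 ± 1.24 CPM in Mc5r-null and 20.3 ± 0.942 CPM in wild-type, and Ddx3y 83.6 ± 2.70 CPM in Mc5r-null and 59.7 ± 13.9 CPM in wild-type (SD, n = 3 each). Of these, Kdm5d was called higher (edgeR adjusted p = 0.0374), a call lost under 7 of 12 alternatives with adjusted p up to 0.174. The labels do not give the sex of the mice, and a part of sex in the values of any gene cannot be told apart from genotype.

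Slpi was the abundant member of the group. It (ENSMUSG00000017002, chromosome 2, positions 164354070 to 164389095, minus strand) encodes the secretory leukocyte peptidase inhibitor, a small secreted protein that blocks neutrophil elastase and cathepsin G. The Mc5r-null libraries held 10016, 9984 and 10046 Slpi counts, against 2558, 2626 and 2487 in the wild-type libraries. That was 713 ± 4.65 CPM in Mc5r-null and 171 ± 4.52 CPM in wild-type (SD, n = 3 each), a ratio of 4.17. Every Mc5r-null library lay far above every wild-type library, with the lowest of them at 4.03 times the highest wild-type CPM. In the deposited FPKM, scaled for a gene length as well as for the library total, Slpi had 432 FPKM in Mc5r-null and 104 FPKM in wild-type. By these deposited values it took place 178 and place 609 among the 15257 genes tested. The length behind its FPKM is longer than the 1180 exonic bases of Slpi in GENCODE M21, so these places hold for the deposited values only. No other gene of the 10 exceeded 3.09 FPKM on average in either genotype.

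The other 9 genes were scarce in both genotypes. Together they had 2528 counts in the Mc5r-null libraries and 700 in the wild-type libraries. Their ratios of CPM ran from 3.27 for Etl4 to 4.63 for Chst1. An exact 95% interval for counting error, which leaves out the spread between libraries and the copying of molecules by PCR, held the Slpi ratio of 4.17 for 8 of these 9 genes. The exception was Etl4, whose interval ended at 4.14. The order of the 10 genes by ratio is therefore mostly within counting error.

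**Figure D1:**
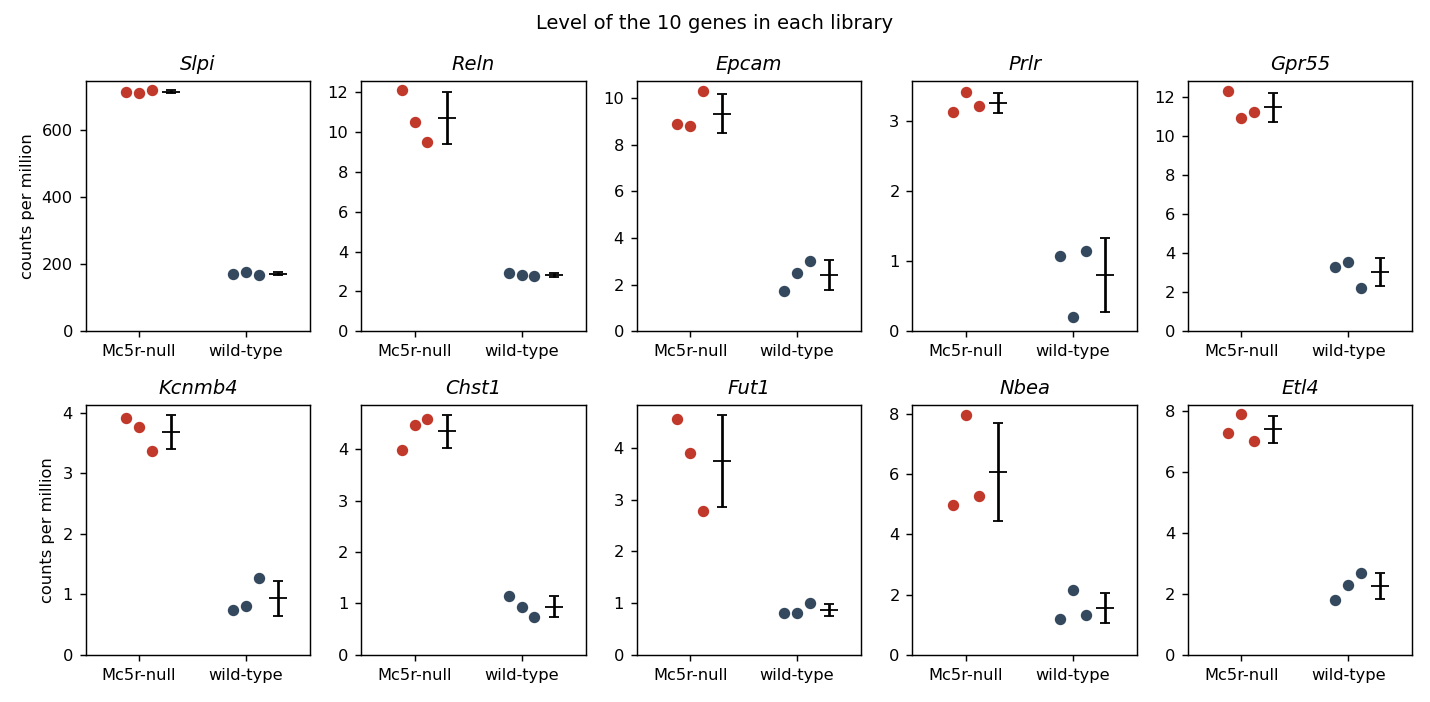
Level of each of the 10 genes in CPM, on an axis that starts at 0 and has its own range in each panel. Points are the 3 Mc5r-null libraries (left) and the 3 wild-type libraries (right), and the bar beside them is the mean with its SD. In every panel all Mc5r-null points lie above all wild-type points, and only Slpi exceeds 12.3 CPM.

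All 10 genes passed the filter on low counts, and in all 10 the 3 Mc5r-null libraries lay above the 3 wild-type libraries. Such a separation was found for 24.2% of all genes tested, and it was met here by selection. The fitted log2 fold changes of edgeR ran from 1.74 to 2.24, with a median of 1.99 beside -0.005 over all genes tested. Ranked by this value among the 15035 tested genes outside the immunoglobulin and globin families, the 10 took places 18 to 63. Most other genes in that range had a lower average level. Among genes with an average level of at least 1.1 log2 CPM, that of Prlr, which was the lowest of the 10, they took places 3, 5, 6, 8 to 13 and 15.

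The genes between them at that level were Gm49510, Gm49361, Slc4a1, Zfp46 and Ms4a1. Gm49510, Gm49361 and Zfp46 differed widely within a genotype; Gm49510, for example, had 12, 404 and 7 counts in Mc5r-null and 0, 22 and 18 in wild-type. Slc4a1 is a red cell membrane gene and Ms4a1 encodes the B cell antigen CD20, and neither overlapped between the genotypes. Just inside the limit of the group stood Etl4, and just outside it Sptb, the erythroid spectrin beta chain gene, with fitted log2 fold changes of 1.74 each. Below Sptb came Rora at 1.71, Pls1 and Sparc at 1.70 each and Gm30211 at 1.65. The lower edge of the group is thus a choice along a continuous range.

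**Figure D2:**
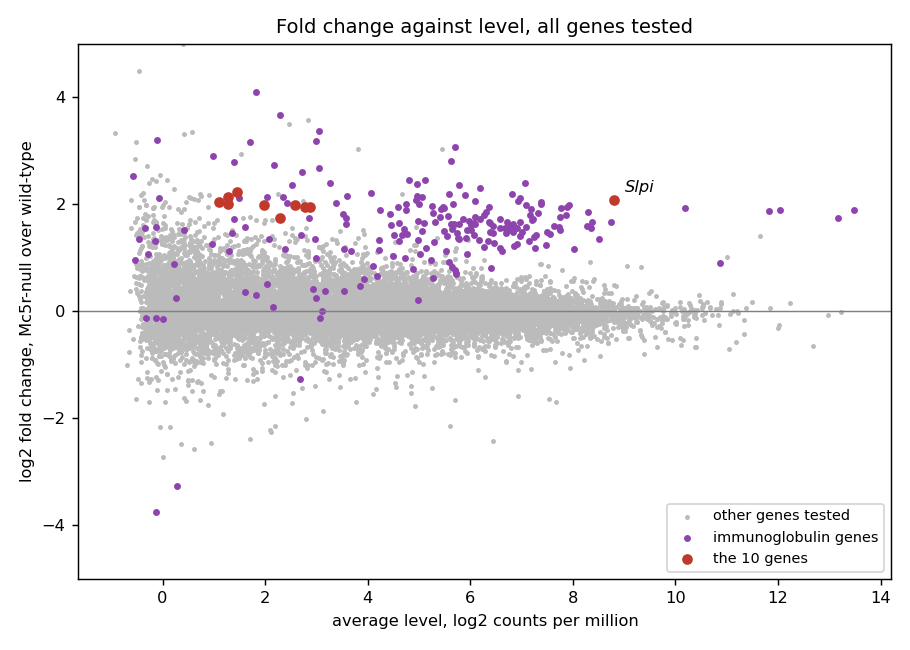
Fitted log2 fold change of Mc5r-null over wild-type (vertical axis) against the average level in log2 CPM (horizontal axis) for all 15257 genes tested, with 4 genes outside the plotted range. The 10 genes are large red points, immunoglobulin genes purple and all others grey; Slpi stands at 8.8 log2 CPM among immunoglobulin genes, while the other 9 lie between 1.1 and 2.88.

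Reln (ENSMUSG00000042453, chromosome 5, positions 21884454 to 22344702, minus strand) encodes reelin, a large secreted glycoprotein that guides migrating neurons through the lipoprotein receptors VLDLR and ApoER2. It had 170, 148 and 133 counts in the Mc5r-null libraries and 44, 42 and 41 in the wild-type libraries. The mean was 10.7 ± 1.30 CPM in Mc5r-null and 2.84 ± 0.0977 CPM in wild-type (SD, n = 3 each), with a fitted log2 fold change of 1.95 ± 0.13 (SE). The wild-type libraries lay closer together than the Mc5r-null ones. The gene model is long, with 23738 exonic bases in GENCODE M21, and the deposited FPKM rest on a still longer length. The level per length was low, at 0.399 FPKM in Mc5r-null and 0.106 FPKM in wild-type.

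Among receptors, Gpr55 (ENSMUSG00000049608, chromosome 1, positions 85938318 to 85961007, minus strand) had the higher level per length, at 3.09 FPKM in Mc5r-null and 0.81 FPKM in wild-type, while Prlr had 0.144 FPKM in Mc5r-null and 0.0355 FPKM in wild-type. The Gpr55 product is a G protein-coupled receptor for lysophosphatidylinositol that also binds some cannabinoids and signals through G12 and G13 proteins. Counts were 173, 154 and 157 in Mc5r-null and 49, 53 and 33 in wild-type, or 11.5 ± 0.722 CPM in Mc5r-null and 3.01 ± 0.706 CPM in wild-type (SD, n = 3 each). The groups were well apart, with a fitted log2 fold change of 1.96 ± 0.16 (SE). Prlr (ENSMUSG00000005268, chromosome 15, positions 10177238 to 10349180, plus strand), the receptor for the hormone prolactin, signals through JAK2 and STAT5. Its counts were 44, 48 and 45 in Mc5r-null and 16, 3 and 17 in wild-type. The value of 3 in wild-type replicate 2 stood below the other wild-type libraries, and all Mc5r-null libraries stood above them. The fitted log2 fold change of Prlr was 2.04 ± 0.39 (SE), and 1.58 without that library. With 3.25 ± 0.143 CPM in Mc5r-null and 0.804 ± 0.523 CPM in wild-type (SD, n = 3 each), it had the largest standard error of the 10.

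Epcam (ENSMUSG00000045394, chromosome 17, positions 87635979 to 87651129, plus strand) encodes a homotypic adhesion molecule of epithelial cells that is also found on some progenitor cells. It had 125, 124 and 144 counts in the Mc5r-null libraries and 26, 37 and 45 in the wild-type libraries. The means were 9.33 ± 0.836 CPM in Mc5r-null and 2.41 ± 0.643 CPM in wild-type (SD, n = 3 each), with a fitted log2 fold change of 1.98 ± 0.18 (SE). In the deposited FPKM, Epcam stood close to Gpr55, with 2.58 FPKM in Mc5r-null and 0.667 FPKM in wild-type. The length behind these values is longer than the 2195 exonic bases of Epcam in GENCODE M21. No order of Epcam and Gpr55 per length is therefore read from them. Kcnmb4 (ENSMUSG00000054934, chromosome 10, positions 116417861 to 116473878, minus strand) encodes the beta-4 subunit of the large-conductance potassium channel that is opened by calcium and voltage, and in brain this subunit slows the channel's opening. Its counts were 55, 53 and 47 in Mc5r-null and 11, 12 and 19 in wild-type. The means were 3.68 ± 0.286 CPM in Mc5r-null and 0.938 ± 0.294 CPM in wild-type (SD, n = 3 each), with a fitted log2 fold change of 2.0 ± 0.22 (SE). Both genes showed no overlap between the genotypes.

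Chst1 (ENSMUSG00000027221, chromosome 2, positions 92599707 to 92615250, plus strand) encodes a sulfotransferase that puts sulfate on galactose in keratan sulfate. It had the largest ratio of the 10 genes, with 56, 63 and 64 counts in Mc5r-null and 17, 14 and 11 in wild-type. The means were 4.35 ± 0.317 CPM in Mc5r-null and 0.938 ± 0.199 CPM in wild-type (SD, n = 3 each), with a fitted log2 fold change of 2.24 ± 0.19 (SE). Fut1 (ENSMUSG00000008461, chromosome 7, positions 45617289 to 45621059, plus strand) encodes the alpha-1,2-fucosyltransferase that makes the H antigen. It had 64, 55 and 39 counts in Mc5r-null and 12, 12 and 15 in wild-type. Mc5r-null replicate 3 was the lowest of its group but still 2.77 times the highest wild-type CPM. The means were 3.75 ± 0.893 CPM in Mc5r-null and 0.871 ± 0.117 CPM in wild-type (SD, n = 3 each), with a fitted log2 fold change of 2.13 ± 0.25 (SE).

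Nbea (ENSMUSG00000027799, chromosome 3, positions 55625195 to 56183701, minus strand) encodes neurobeachin, a BEACH domain protein that anchors protein kinase A and acts in membrane traffic at synapses. It had 70, 112 and 74 counts in Mc5r-null and 18, 32 and 20 in wild-type. Replicate 2 was the highest library in each genotype, and the narrowest gap of the 10 genes was here, with the lowest Mc5r-null library at 2.32 times the highest wild-type CPM. The means were 6.08 ± 1.64 CPM in Mc5r-null and 1.56 ± 0.507 CPM in wild-type (SD, n = 3 each), with a fitted log2 fold change of 1.99 ± 0.27 (SE). Etl4 (ENSMUSG00000036617, chromosome 2, positions 19909780 to 20810713, plus strand), also called Skt or sickle tail, is known in the mouse for a part in the notochord and the intervertebral discs. Its counts were 102, 111 and 98 in Mc5r-null and 27, 34 and 40 in wild-type, or 7.38 ± 0.452 CPM in Mc5r-null and 2.26 ± 0.440 CPM in wild-type (SD, n = 3 each). It had the smallest fitted log2 fold change of the 10, at 1.74 ± 0.16 (SE).

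The spread within a genotype was small for several of these genes. The variance of the counts over their mean, which counting noise alone puts near 1 on average, ranged from 0.0882 for Prlr to 6.19 for Nbea among the Mc5r-null libraries and from 0.0503 for Reln to 5.09 for Prlr among the wild-type libraries. With 3 libraries this value is rough. Over all genes the libraries of 1 genotype differed by more than counting noise. The median chi-square was 0.674 to 0.72 per gene where noise gives 0.455, so no pair was treated as a repeat of 1 library. This does not tell libraries of different mice from separate libraries of 1 pool of cells.

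The 10 genes are scattered over the genome, with Slpi, Chst1 and Etl4 far apart on chromosome 2 and the others on chromosomes 1, 3, 5, 7, 10, 15 and 17 (GRCm38). Positions are those of the deposited table on GRCm38, and for all 10 they equal GENCODE M21, with loci of 3.77 kb for Fut1 to 901 kb for Etl4. The nearest tested gene on each side, chosen by position after values were known, gave 20 neighbours, of which 4 were higher and 4 lower in Mc5r-null, beside 16.8% higher and 16.1% lower over all genes tested. Matn4, a matrix protein gene, lies 0.298 kb from the GENCODE model of Slpi, which ends at position 164389095. The RefSeq promoter window of Slpi ends at position 164356757 and so lies farther from Matn4. Matn4 had 14, 20 and 10 counts in Mc5r-null and 0, 3 and 2 in wild-type (edgeR adjusted p = 0.00532). Its log2 fold change of 3.16 rests on few wild-type counts and was 3.83 without wild-type replicate 2. Ptprb, an endothelial phosphatase gene 28.3 kb from Kcnmb4, had 17, 16 and 23 counts in Mc5r-null and 4, 3 and 4 in wild-type (edgeR adjusted p = 0.000974). Izumo1, 0.752 kb from Fut1, had 12, 16 and 13 counts in Mc5r-null and 5, 6 and 2 in wild-type (edgeR adjusted p = 0.011, and 0.0569 with DESeq2). The other higher neighbour was Prdm11, 350 kb from Chst1, at 1.30-fold (edgeR adjusted p = 0.0193, and up to 0.0619 under 12 alternatives). Those that fell were Slc35c1, 139 kb from Chst1 (1.33-fold), and Bcat2, 27.6 kb from Fut1 (1.25-fold), with edgeR adjusted p of 0.000151 and 0.00288. Psmc2, 80.7 kb from Reln (1.14-fold), and Otud1, 249 kb from Etl4 (1.55-fold), fell too, with edgeR adjusted p of 0.00417 and 0.00521.

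Some loci contain other genes. Kcnmb4os2, an antisense RNA gene within Kcnmb4, had 25, 21 and 21 counts in Mc5r-null and 3, 4 and 6 in wild-type (edgeR log2 fold change 2.45 ± 0.32 SE, adjusted p = 0.000593). The sources used here do not give how the counting treated strand, so reads of Kcnmb4 and Kcnmb4os2 may not be fully told apart. Inside Etl4, the processed pseudogene Gm13363 on the same strand went the other way, with 139, 151 and 150 counts in Mc5r-null and 209, 231 and 182 in wild-type.

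Promoter windows from 250 bases before to 50 bases after a start site were taken from RefSeq (GRCm38.p6), which gave 14 windows for all 10 genes among 32851 in all. Windows of Slpi, Gpr55 and Reln are shown because they differ in base composition and carry the motifs that were found most often; each line holds the 250 bases before the start site on the gene's strand, 5′ to 3′. Capitals mark GAAAGT, the core letters bound by PRDM1, a regulator of plasma cells (ACTTTC on the other strand), ACGTGG, a core bound by XBP1 (CCACGT on the other strand), and GGGCGG, a GC box of the Sp1 type. The RefSeq start of Slpi lies inside the longer GENCODE model. The windows are chr2:164356508-164356757, chr1:85961056-85961305 and chr5:22344706-22344955, all on the minus strand.
Slpi: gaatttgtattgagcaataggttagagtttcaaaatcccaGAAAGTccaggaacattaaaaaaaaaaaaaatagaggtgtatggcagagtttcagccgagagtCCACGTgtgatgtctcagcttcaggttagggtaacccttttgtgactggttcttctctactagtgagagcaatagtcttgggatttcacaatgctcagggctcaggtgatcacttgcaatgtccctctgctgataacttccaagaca
Gpr55: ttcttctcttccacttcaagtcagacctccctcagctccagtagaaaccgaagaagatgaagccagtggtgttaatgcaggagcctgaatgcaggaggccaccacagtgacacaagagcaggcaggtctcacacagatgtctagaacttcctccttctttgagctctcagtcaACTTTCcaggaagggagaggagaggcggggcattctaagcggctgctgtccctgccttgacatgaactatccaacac
Reln: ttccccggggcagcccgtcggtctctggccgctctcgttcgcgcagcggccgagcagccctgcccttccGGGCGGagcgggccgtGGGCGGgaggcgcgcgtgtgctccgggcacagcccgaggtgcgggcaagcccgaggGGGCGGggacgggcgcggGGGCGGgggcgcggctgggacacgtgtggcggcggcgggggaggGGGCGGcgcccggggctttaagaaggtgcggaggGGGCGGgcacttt

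The promoters of the 10 genes do not share a base composition. The Reln window was 80.7% G and C with 47 CpG, and those of Kcnmb4 (79% with 48 CpG) and Nbea (75% with 36 CpG) were alike in this. The lowest share among the 14 windows was 35.3%, with 4 CpG, in 1 of the Prlr windows. The Slpi window had 43.3% and 2 CpG and that of Gpr55 52.3% and 4 CpG; the median of all windows was 52.7% and 7 CpG. Letters were searched on both strands; TGACG and ACGTGG can share letters, which no window of the 10 genes showed. GGGCGG was found in 5 of the 14 windows, those of Reln, Epcam, Kcnmb4, Fut1 and Nbea, and in 35.7% of all windows. GAAAGT was found in 4 windows, those of Slpi, Reln, Prlr and Gpr55, and in 14.3% of all windows, and ACGTGG in 2, of Slpi and Prlr, and in 8.31% of all. The GAAAGT match of Reln begins at -5 from the start site and crosses it, so it is not marked in the line shown. TGACG, the half-site of the cAMP response element, was in 1 window, of Prlr (20.8% of all windows), and TATAAA in 1, of Etl4 (13.6%). The octamer letters TTTGCAT and the GATA-type letters AGATAA were in no window of the 10 genes, and in 4.63% and 11.2% of all windows. A match of this kind is a description of letters and not of a bound site.

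Immunoglobulin transcripts were also higher in Mc5r-null LSK cells. They took 6.91 ± 0.0487% of all counts in Mc5r-null and 2.14 ± 0.00181% in wild-type (SD, n = 3 each), a ratio of 3.22. Slpi had 10.4, 10.3 and 10.3 counts per 1000 immunoglobulin counts in the Mc5r-null libraries and 7.97, 8.2 and 7.79 in the wild-type libraries, so its ratio was the larger. Of 19 plasma cell markers tested, 15 rose and none fell (14 and 0 with DESeq2, and 1 lower at an unadjusted edgeR p under 0.05), with a median log2 fold change of 1.06 beside -0.005 over all genes. Examples are Sdc1, which encodes CD138, at 70.2 ± 4.36 CPM in Mc5r-null and 33.1 ± 2.53 CPM in wild-type (edgeR adjusted p = 7.46e-06), and the plasma cell transcription factor gene Irf4 at 41.9 ± 1.25 CPM in Mc5r-null and 18.1 ± 1.20 CPM in wild-type (SD, n = 3 each; edgeR adjusted p = 2.7e-06). Tnfrsf17, the gene of the survival receptor BCMA, came to 8.38 ± 1.34 CPM in Mc5r-null and 2.93 ± 0.28 CPM in wild-type (SD, n = 3 each; edgeR adjusted p = 0.000151).

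The summed level of the 19 plasma cell markers was 6710, 6600 and 3750 CPM in the Mc5r-null libraries and 2620, 2560 and 2560 CPM in the wild-type libraries. Jchain, which joins chains of secreted antibody, makes up most of it. It had 78743, 77347 and 36618 counts in Mc5r-null and 26654, 26196 and 25975 in wild-type. Mc5r-null replicate 3 thus stood apart for this gene, but not for Slpi or for the immunoglobulin share. The Jchain call (edgeR adjusted p = 0.0427) was lost under 7 of 12 alternatives, with adjusted p up to 0.131, and without Mc5r-null replicate 3 the plasma cell list again had 15 genes higher. No marker of the list was at 0. The part of plasma cells in the values of the 10 genes was not tested, and in bulk samples more cells of a type and more RNA per cell cannot be told apart.

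**Figure D3:**
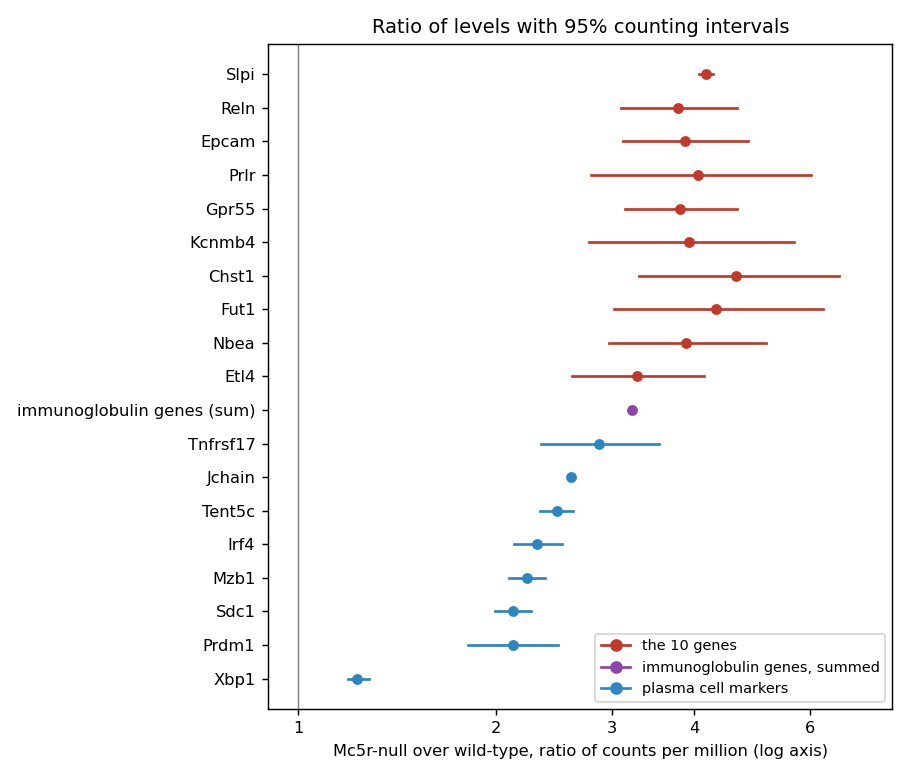
Ratio of CPM, Mc5r-null over wild-type, on a log axis, with exact 95% intervals for counting error only, from the counts of 3 libraries pooled per genotype. Rows are the 10 genes (red), the sum of immunoglobulin genes (purple) and 8 plasma cell markers (blue); the 10 genes lie between 3.27 and 4.63, the immunoglobulin sum at 3.22.

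Markers of other cells moved with the genotype as well. Of 9 genes of sinusoidal endothelium, 8 rose and none fell (7 and 0 with DESeq2, and 0 lower at an unadjusted edgeR p under 0.05), with a median log2 fold change of 0.95 and a summed level of 112 to 119 CPM in Mc5r-null and 68.2 to 80.1 CPM in wild-type. Kdr, a VEGF receptor gene, had 34, 35 and 39 counts in Mc5r-null and 12, 7 and 7 in wild-type (edgeR adjusted p = 0.000327), while Cdh5, the endothelial cadherin gene, had 41, 44 and 45 in Mc5r-null and 42, 39 and 33 in wild-type (edgeR adjusted p = 0.183). Of 8 erythroid genes tested, 6 rose and 1 fell (4 and 0 with DESeq2), with a median of 1.33, although the summed level was 242 to 246 CPM in Mc5r-null and 252 to 257 CPM in wild-type. The gene that fell was Tfrc, the transferrin receptor gene, which makes up most of that sum, with 225 ± 2.10 CPM in Mc5r-null and 247 ± 2.74 CPM in wild-type (SD, n = 3 each; edgeR adjusted p = 0.00632, and 0.155 with DESeq2). Slc4a1 had 114, 105 and 103 counts in Mc5r-null and 29, 18 and 29 in wild-type (edgeR adjusted p = 3.76e-05). Globin transcripts took 0.0156% of counts in Mc5r-null and 0.00232% in wild-type.

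B cell genes did not move together, with 3 of 10 higher and 4 lower and a summed level of 159 to 163 CPM in Mc5r-null and 144 to 149 CPM in wild-type. Ms4a1 rose (67, 72 and 66 counts in Mc5r-null, 22, 24 and 19 in wild-type, edgeR adjusted p = 6.17e-05). Neutrophil genes were 2 higher and 5 lower of 7 (2 and 5 with DESeq2), macrophage genes 1 higher and 4 lower of 6 (1 and 3 with DESeq2), and T and NK cell genes 3 higher and 1 lower of 5 (2 and 1 with DESeq2). Megakaryocyte genes were 0 higher and 1 lower of 4 (0 and 1 with DESeq2, and 0 higher at an unadjusted edgeR p under 0.05). Of marrow stroma genes only 4 of 10 could be tested, with 2 higher and 0 lower (2 and 0 with DESeq2, 1 lower at an unadjusted edgeR p under 0.05), and a summed level of 82.4 to 84.1 CPM in Mc5r-null and 60.8 to 66.7 CPM in wild-type. Sparc, a matrix protein gene, had 93, 77 and 78 counts in Mc5r-null and 25, 26 and 32 in wild-type (edgeR adjusted p = 0.000101), and Pdgfrb, a growth factor receptor gene, 75.5 ± 0.867 CPM in Mc5r-null and 59.6 ± 2.90 CPM in wild-type (SD, n = 3 each; edgeR adjusted p = 0.000386). The chemokine gene Cxcl12, too scarce to test, had 17, 9 and 8 counts in Mc5r-null and 3, 0 and 1 in wild-type. Collagen genes did not rise with these. Col1a1 had 4, 8 and 5 counts in Mc5r-null and 12, 11 and 18 in wild-type (edgeR adjusted p = 0.0558). Col1a2 had 9, 13 and 11 in Mc5r-null and 17, 13 and 8 in wild-type (edgeR adjusted p = 0.886). The genes Lepr, Col3a1, Adipoq and Bglap had 0 counts in all 6 libraries. A count of 0 allows up to 3 counts, which is 0.201 to 0.215 CPM in these libraries. The part of any of these cells in the values of the 10 genes was not tested.

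Genes of the LSK cells themselves were mostly higher in Mc5r-null, with 6 of 8 higher and 0 lower (6 and 0 with DESeq2, and 0 lower at an unadjusted edgeR p under 0.05), a median log2 fold change of 0.55 and a summed level of 1630 to 1650 CPM in Mc5r-null and 1310 to 1340 CPM in wild-type. Flt3, a cytokine receptor gene of early progenitors, had 529 ± 3.55 CPM in Mc5r-null and 391 ± 2.17 CPM in wild-type (SD, n = 3 each; edgeR adjusted p = 2.53e-07). Procr, a gene of blood stem cells, rose 1.77-fold (edgeR adjusted p = 0.000155), and so did Slamf1, 2.67-fold, with 42, 47 and 49 counts in Mc5r-null and 13, 22 and 21 in wild-type (edgeR adjusted p = 0.00139). The part of the makeup of the sorted cells in the values of the 10 genes was not tested.

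Genes related to each of the 10 except Etl4, as partners, family relatives or tissue markers, were described from 9 lists of 117 genes. Of these, 88 were tested, 31 were higher and 16 lower in Mc5r-null, beside 16.8% higher and 16.1% lower over all genes. At an unadjusted edgeR p under 0.05, 1 gene of the reelin list and 0 of the prolactin receptor list were lower, where none was at the adjusted p. The 88 are not independent evidence on the 10 genes, since earlier results were known when the lists were made.

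**Figure D4:**
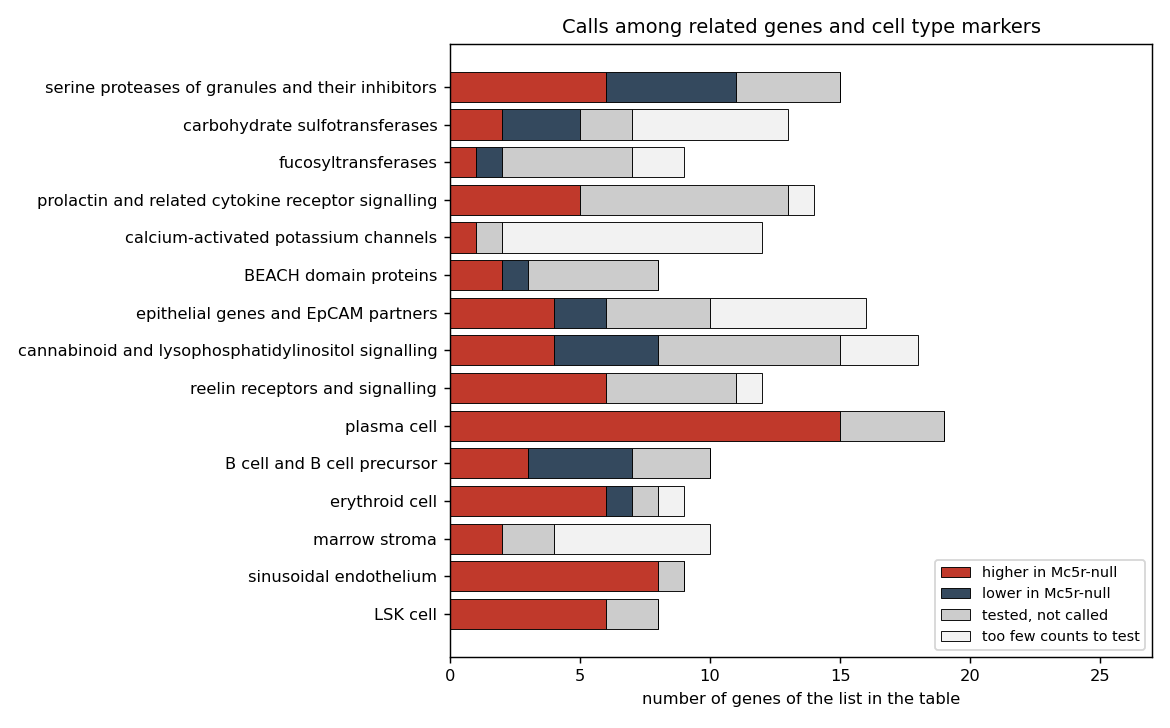
Number of genes in each list (horizontal axis) that were higher in Mc5r-null (red), lower in Mc5r-null (dark), tested and not called (grey) or too scarce to test (pale), at an edgeR adjusted p under 0.05. The upper 9 bars are the lists of genes related to the 10 genes and the lower 6 are cell type markers; the plasma cell bar holds 15 higher genes of 19, and the channel list has 10 of 12 genes too scarce to test.

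Genes of granule proteases, among them the elastase and cathepsin G that SLPI blocks, were lower in Mc5r-null. Elane, which encodes neutrophil elastase, fell to 1580 ± 140 CPM in Mc5r-null, against 2640 ± 134 CPM in wild-type (SD, n = 3 each; edgeR adjusted p = 0.00447). Ctsg, the cathepsin G gene, fell to 1040 ± 3.36 CPM in Mc5r-null, against 1680 ± 30.8 CPM in wild-type (SD, n = 3 each; edgeR adjusted p = 2.81e-08), and Prtn3, the proteinase 3 gene, to 1030 ± 16.5 CPM in Mc5r-null, against 1660 ± 10.1 CPM in wild-type (SD, n = 3 each; edgeR adjusted p = 2.47e-08). Other inhibitors went both ways. Serpinb1a, an intracellular inhibitor of the same proteases, fell 1.41-fold (edgeR adjusted p = 1.4e-06), and Serpina3g rose 1.57-fold (edgeR adjusted p = 1.35e-05). Wfdc17, of the same domain family as Slpi, rose 1.46-fold (edgeR adjusted p = 0.00125), and Wfdc2, of that family too, had 21, 37 and 17 counts in Mc5r-null and 6, 10 and 10 in wild-type (edgeR adjusted p = 0.0125). Wfdc21 of the same family fell 1.59-fold, with 26.9 ± 1.09 CPM in Mc5r-null and 43.7 ± 0.733 CPM in wild-type (SD, n = 3 each; edgeR adjusted p = 3.57e-05). Wfdc18 had 16, 22 and 23 counts in Mc5r-null and 11, 19 and 18 in wild-type (edgeR adjusted p = 0.243). Over the list, 6 of 15 genes were higher and 5 lower, with a median log2 fold change of 0.13.

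Genes of reelin signalling were 6 higher and 0 lower of 11 tested, with a median log2 fold change of 0.1, but with DESeq2 only 2 were higher and 0 lower. The receptor gene Vldlr rose 1.77-fold, with 83.7 ± 2.4 CPM in Mc5r-null and 48.4 ± 2.3 CPM in wild-type (SD, n = 3 each; edgeR adjusted p = 3.96e-06). Lrp8, the gene of the other receptor, ApoER2, had 32.1 ± 3.21 CPM in Mc5r-null and 37.7 ± 0.25 CPM in wild-type (SD, n = 3 each; edgeR adjusted p = 0.0793); leaving out Mc5r-null replicate 2 gave an edgeR adjusted p of 0.023. Dab1, the adaptor that carries the reelin signal in neurons, had 0 counts in all 6 libraries. Itga3, an integrin chain gene, rose 1.95-fold (edgeR adjusted p = 0.00279). The kinase gene Src rose 1.53-fold (edgeR adjusted p = 0.0109, and 0.0655 with DESeq2). The calls of Fyn (1.14-fold), Pafah1b1 and Rapgef1 (1.07-fold each), with edgeR adjusted p of 0.0218, 0.0353 and 0.0469, were lost under 6, 7 and 8 of 12 alternatives, with adjusted p up to 0.301.

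In the prolactin receptor list, 5 of 13 tested genes were higher and 0 lower (4 and 0 with DESeq2), with a median of 0.15. Prl, the gene of the hormone, had 0 counts in all 6 libraries. Jak1 rose 1.14-fold (edgeR adjusted p = 0.000331) and Stat5b 1.11-fold (edgeR adjusted p = 0.00382). Socs2, a feedback inhibitor gene that STAT5 induces, rose 1.73-fold, with 80, 111 and 84 counts in Mc5r-null and 64, 50 and 59 in wild-type (edgeR adjusted p = 0.00731). Epor, the erythropoietin receptor gene, had 26, 30 and 24 counts in Mc5r-null and 10, 10 and 23 in wild-type (edgeR adjusted p = 0.0459), a call lost under 7 of 12 alternatives with adjusted p up to 0.143. Of the pair through which the receptor signals, Jak2 had 77.4 ± 3.03 CPM in Mc5r-null and 76.6 ± 5.15 CPM in wild-type (edgeR adjusted p = 0.548), and Stat5a 106 ± 2.57 CPM in Mc5r-null and 105 ± 1.95 CPM in wild-type (SD, n = 3 each; edgeR adjusted p = 0.321). Cish, another gene that STAT5 induces, was uneven, with 376, 124 and 345 counts in Mc5r-null and 90, 139 and 205 in wild-type (edgeR adjusted p = 0.219).

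Of 15 tested genes of cannabinoid and lysophosphatidylinositol signalling, 4 were higher and 4 lower, with a median of -0.04. Downstream of GPR55, the G protein gene Gna13 rose 1.15-fold (edgeR adjusted p = 0.00086), while Gna12 fell 1.15-fold, with 99.7 ± 3.20 CPM in Mc5r-null and 117 ± 2.75 CPM in wild-type (SD, n = 3 each; edgeR adjusted p = 0.00322). Rhoa, a small GTPase gene, fell 1.10-fold, with 422 ± 10.0 CPM in Mc5r-null and 475 ± 2.35 CPM in wild-type (SD, n = 3 each; edgeR adjusted p = 0.00174), and Rock1, of a kinase that RHOA activates, rose 1.12-fold (edgeR adjusted p = 0.00173). Faah, which encodes an enzyme that breaks down the cannabinoid anandamide, rose 1.52-fold (edgeR adjusted p = 0.000692), and Daglb, of an enzyme that helps to make 2-arachidonoylglycerol, fell 1.46-fold (edgeR adjusted p = 0.000127).

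Epithelial genes other than Epcam moved both ways. Of 16 such genes 10 were tested, 4 were higher and 2 lower, with a median of 0.19, and their summed level was 529 to 543 CPM in Mc5r-null and 514 to 573 CPM in wild-type. Cldn7, a claudin that binds EpCAM, had 17, 18 and 15 counts in Mc5r-null and 2, 0 and 6 in wild-type (edgeR adjusted p = 0.00817). Its log2 fold change of 2.71 rests on few wild-type counts and was 4.01 without wild-type replicate 3. Cdh1, the E-cadherin gene, went the other way, with 29, 32 and 30 counts in Mc5r-null and 78, 107 and 112 in wild-type (edgeR adjusted p = 0.000272). Cd9, of a tetraspanin that associates with EpCAM, fell 1.26-fold (edgeR adjusted p = 0.00169), while the keratin gene Krt18 rose 1.37-fold (edgeR adjusted p = 0.000227) and the membrane protease gene St14 rose 1.41-fold (edgeR adjusted p = 0.000735). Spint2, an inhibitor of such proteases, rose 1.18-fold (edgeR adjusted p = 0.000841). Krt8, the partner of Krt18, had 31, 17 and 20 counts in Mc5r-null and 24, 22 and 21 in wild-type (edgeR adjusted p = 0.717), and Krt19 and Esrp1 had 0 counts in all 6 libraries.

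The channel that KCNMB4 modifies was not detected. Kcnma1, which encodes its pore, had 0 counts in all 6 libraries, as did 6 other genes of a list of 12. Of that list 2 genes were tested. Kcnn4, an intermediate-conductance calcium-activated channel gene of blood cells, had 103 ± 7.78 CPM in Mc5r-null and 77.1 ± 11.7 CPM in wild-type (SD, n = 3 each; edgeR adjusted p = 0.0455), a call lost under 6 of 12 alternatives with adjusted p up to 0.126.

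Among relatives of the Golgi enzymes the changes were small and mixed. Carbohydrate sulfotransferases were 2 higher and 3 lower of 7 tested, with a median of -0.28. Chst3 fell 1.82-fold (edgeR adjusted p = 0.00614), Chst13 1.54-fold (edgeR adjusted p = 0.00037) and Chst12 1.28-fold (edgeR adjusted p = 0.000227). The higher calls, of Chst11 and Chst15, were 1.08-fold and 1.15-fold (edgeR adjusted p = 0.0389 and 0.0456) and were lost under 8 and 9 of 12 alternatives, with adjusted p up to 0.266. Fucosyltransferases were 1 higher and 1 lower of 7 tested, with a median of 0.16. Fut8, the core fucosyltransferase gene, rose 1.15-fold (edgeR adjusted p = 0.000186). The call of Fut11 (1.18-fold lower, edgeR adjusted p = 0.0299) was lost under 6 of 12 alternatives, with adjusted p up to 0.150. Fut2, the closest relative of Fut1, had 0, 3 and 0 counts in Mc5r-null and 0 in each wild-type library.

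BEACH domain genes other than Nbea were 2 higher and 1 lower of 8 tested, with a median of 0.11. Lrba, a regulator of CTLA-4 traffic in lymphocytes, rose 1.35-fold (edgeR adjusted p = 0.000373), and Wdfy4, which acts in antigen cross-presentation by dendritic cells, rose 1.14-fold (edgeR adjusted p = 0.000878). Nsmaf fell 1.13-fold (edgeR adjusted p = 0.00811, and 0.0694 with DESeq2). No list was made for Etl4.

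For each of the 10 genes the most similar other genes were sought over the 6 libraries, by the Euclidean distance of log2 CPM centred on each gene's mean, with immunoglobulin and globin genes left out. Sema6d, a semaphorin gene, was nearest to Slpi (distance 0.385), Fut1 (0.361) and Reln (0.341), although it had only 22, 22 and 17 counts in Mc5r-null and 4, 3 and 4 in wild-type. Kdr was nearest to Chst1 (0.346), Ms4a1 to Gpr55 (0.458), Mef2b to Kcnmb4 (0.272), Gpm6a to Epcam (0.344), Inava to Prlr (0.424), C1qa to Nbea (0.466) and Fabp4 to Etl4 (0.281). These distances carry no test. They use the same contrast that selected the 10 genes, so a small distance mainly reflects a rise of like size. The prior count of 2 also pulls in the folds of scarce genes, as for Sema6d, with a fitted fold of 5.86 beside 4.26 for Slpi. Within the group, Slpi and Reln were the closest pair (0.357), and Prlr, with its low count in wild-type replicate 2, lay farthest from the others (1.44 to 2.15).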

How the data were processed

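Whole-number read counts per gene and FPKM values (fragments per kilobase of gene model, scaled to the library total) for 6 libraries were deposited by the authors in 1 table. The deposited counts carry no normalization, per the file headers and the values, and the deposited FPKM follow the counts over the library total. The gene lengths behind the FPKM exceed the exonic bases in GENCODE M21 for some genes, Epcam among them. Libraries were stranded poly-A mRNA libraries sequenced in pairs, per the labels' protocols. The submitters' processing notes name CASAVA 1.8, HISAT2, StringTie, edgeR and GRCm38 without roles; the counting program and its use of strand are not given in the sources used here.

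Here the counts were tested in R 4.3.3 with edgeR 4.0.16 (filterByExpr with a minimum count of 10 and a minimum total of 15, TMM scaling, robust quasi-likelihood F-test, genotype as the only term, adjusted p threshold 0.05). CPM scale counts by the library total, 13983016 to 14953169. Count intervals are exact, at 95%, and cover counting error only. Fitted folds use edgeR's default prior count. Distances use log2 CPM with a prior count of 2.

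The 10 genes, the 20 gene lists and the tests were chosen with earlier results of these data known. The rule for named genes takes the 10, those ranked around them, the nearest in pattern, up to 6 called genes of each list by p and up to 3 uncalled by level, and defining markers. The text names a part of these; others, among them neighbouring and overlapping genes, were added after values were seen. Alternatives were RLE scaling, DESeq2 1.42.0, other filters, no immunoglobulin genes, a replicate block and leaving out each library. Protein sequences were not used here. Values of 2 genes that the rule names are not reported here, while the counts and medians of their lists include them.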

Additional observations from a re-analysis of the deposited data

How the results depend on the processing

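The values of the 10 genes were recomputed under alternative scalings, filters and tests and without each library in turn, 130 values in all. None changed sign, and 128 stayed within the spread between libraries. Kcnmb4 moved to a log2 fold change of 2.27 without wild-type replicate 3, and Slpi moved to 2.06 as a plain ratio of CPM. Apart from leaving out a library, no alternative moved a fitted log2 fold change by more than 0.04; without 1 library, that of Prlr lay between 1.58 and 2.37. The median of the 10 lay between 1.99 and 2.08 without 1 library, and the other settings gave 1.97 to 2.0.

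With DESeq2, 1656 genes were higher and 1446 lower. Without 1 library, 2080 to 2124 were higher and 1986 to 2094 lower, the 9 lists of related genes had 23 to 26 higher and 15 to 16 lower, and the plasma cell list had 12 to 15 higher. Over all genes, libraries with the same replicate number did not deviate together (correlations 0.00255, -0.0408 and -0.024). A correlation over all genes cannot show whether single genes do. Crk, for example, had 972, 973 and 333 counts in Mc5r-null and 910, 855 and 305 in wild-type, in order of replicate number. With the replicate number as a block, 2254 genes were higher and 2148 lower, the lists of related genes had 28 higher and 15 lower, the plasma cell list 14 higher, and the median of the 10 genes was 2.0. Of 76 called genes that were followed singly, 60 kept their call under every one of up to 12 alternative fits. The direction of Krt8, which was not called, turned to -0.15 without Mc5r-null replicate 1, with a range of -0.15 to 0.31 over the libraries left out; the cause was not tested. That of Eif2s3y, not called either, was 0.0 without Mc5r-null replicate 3, with a range of -0.12 to 0.0 over the libraries left out. Counting motifs in the 250 bases before the start alone gave 3 genes with GAAAGT, against 4 with the whole window.

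Depth limits the 9 scarce genes most, since their wild-type sums were 36 to 135 counts. Separate effects of sex or cell makeup cannot be told apart from genotype, and no library of another kind was analysed here.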
